A study of Mus musculus with 16 samples.

Results

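The metallothionein genes Mt1, Mt2, Mt3 and Mt4 and the gene of their zinc-sensing regulator, Mtf1, were followed in 2 fat depots of female mice, white adipose tissue (WAT) and the brown fat depot (BAT). The members were all genes of the mouse metallothionein cluster on chromosome 8 plus Mtf1, and every array probe whose transcript accession maps to one of them was taken. This gave 9 probes for 5 genes, of 41174 probes on the array. The 5 genes are among the 25107 genes and unnamed probes that passed the filter on dim signals. Of the 9 probes 7 passed it, with at least 1 for each of the 5 genes, and these 7 were well above background on all 16 arrays. The members were chosen from the knockout against control values of Mt2 in these same samples, so every knockout against control value of a member below is a description and carries no test. Differences between BAT and WAT were not used in that choice and were tested. They share its samples, so the depot tests of Mt2 are not wholly free of the choice.

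There were 4 groups, each with 4 one-colour arrays: control WAT (CTL_WAT), knockout WAT (AdipoKO_WAT), control BAT (CTL_BAT) and knockout BAT (AdipoKO_BAT). Controls were wild-type mice. Knockouts lacked the glucocorticoid receptor (GR, gene Nr3c1) in adipose tissue. The promoter that drives the deletion, the strain, the age and any treatment of the mice are not given in the sources used here. The arrays of AdipoKO_WAT 1 and 2 were as alike as repeated spots: the SD of their log2 difference over 4569 bright probes was 0.0813, a ratio of 0.935 to the 0.0869 expected from spot noise. That expected SD combines the noise of both arrays, taken from the repeated spots of 37 probes. The smallest ratio in the other 119 pairs of arrays was 1.69. These 2 arrays were averaged and counted as 1 sample, AdipoKO_WAT 1-2, so that knockout WAT has n = 3 and the other groups n = 4. The level of a probe is log2 of its signal over the signal at the 75th percentile of its array (298 to 1035), so a level of 0 means a signal at that percentile. Levels are given as mean ± SD and differences in log2 ± SE, where the SE comes from the fit over all features for the probe that stands for a gene and from the SDs of both groups for a second probe. For each gene the fit uses 1 estimate of the spread for all 4 groups. Levels of different probes cannot be set against each other. Precision is limited by how few arrays each group has.

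Metallothioneins are small cysteine-rich proteins that bind zinc and copper and buffer cells against free metal and oxidants. MTF1 is the transcription factor that senses free zinc and then binds metal response elements in metallothionein promoters. Glucocorticoids are a classical second inducer of Mt1 and Mt2, the broadly expressed members. Mt3 is known best from brain and Mt4 from stratified epithelium.

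In RefSeq (GRCm38.p6) Mt4, Mt3, Mt2 and Mt1 lie in this order on the plus strand of chromosome 8, from base 94137204 to base 94180327, and Mtf1 begins at base 124802549 of chromosome 4. The 250 bases before the RefSeq start were found for all 5 genes and searched on both strands for the core of the metal response element, TGCACNC or TGCGCNC. The Mt2 window is shown whole because it holds most of these cores among the members. For Mt1, where RefSeq also lists a longer transcript across the window, only the bases around its core are shown. Capitals mark the cores, and both stretches read 5′ to 3′ on the plus strand.
Mt2, chr8:94172368-94172617: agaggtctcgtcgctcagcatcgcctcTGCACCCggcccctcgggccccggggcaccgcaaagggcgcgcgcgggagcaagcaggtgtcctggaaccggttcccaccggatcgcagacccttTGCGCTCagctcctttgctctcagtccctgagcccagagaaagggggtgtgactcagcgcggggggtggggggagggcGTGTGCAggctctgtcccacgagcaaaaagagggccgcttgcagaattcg
Mt1, chr8:94179054-94179083: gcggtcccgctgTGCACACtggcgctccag

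The Mt2 window held 3 cores, ending 217, 122 and 44 bases before the start, and 1.26% of the 32851 windows of all genes held at least as many. The Mt1 and Mt4 windows each held 1 core, and at least 1 was found in 21.4% of all windows. The Mt3 and Mtf1 windows held 0. The full palindromic glucocorticoid response element was in none of the 5 windows. It was in only 3 of all 32851 windows (0.00913%), so nothing is read from its absence here. Its loose form ACANNNTGT was found once, in Mt1, and in 5.84% of all windows. The letters TATAAA were found for Mt4 alone and in 12.4% of all windows, and whether the Mt1 and Mt2 transcripts of these tissues begin at the RefSeq starts was not tested. A match is a description of these letters and not of a bound site. Bases farther before the RefSeq start and all bases after it were not searched. The counts and absences therefore hold for these windows and not for the whole promoter of a gene.

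The targeted gene Nr3c1 was at 2.19 ± 0.28 in CTL_WAT and 1.53 ± 0.15 in AdipoKO_WAT, and at 2.49 ± 0.16 in CTL_BAT and 1.45 ± 0.21 in AdipoKO_BAT, with no overlap between genotypes in either depot. The level of a marker list in a sample is the median log2 deviation of its genes from their means over the samples. All 12 adipocyte markers were measured, and the brown adipocyte list (8 of 8 measured) separated the depots, at 2.24 to 2.99 in BAT and -4.75 to -2.21 in WAT. The WAT samples differed in content. Adipocyte markers were at -2.19 in AdipoKO_WAT 1-2 and -1.24 in AdipoKO_WAT 3, against -0.50 to 0.15 in CTL_WAT and 0.78 in AdipoKO_WAT 4. B cell markers (8 of 8 measured) stood at 5.09 and 4.79 in AdipoKO_WAT 1-2 and 3, at -1.29 in AdipoKO_WAT 4 and at -0.54 to 3.75 in CTL_WAT. CTL_WAT 1 and 4 carried intestinal epithelial transcripts, at 6.98 and 5.57, against -1.83 to 0.91 in the other WAT samples. Each of the 4 slides carried 1 array of each group, and every group kept its own position on the slide, so that position and group cannot be told apart. The design text calls the samples biological replicates and says nothing of litters or days, so p-values measure the spread between these samples. The sample titles give a group and a replicate number. Whether WAT and BAT samples came from the same mice is not known here, and the fit takes all samples as independent.

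Mt2 was lower in knockout than in control BAT in every sample. The Mt2 level in CTL_BAT 1 to 4 was 5.87, 6.36, 6.03 and 5.86. In AdipoKO_BAT 1 to 4 it was 3.87, 4.05, 4.67 and 4.56. The groups stood more than 1 log2 unit apart, and AdipoKO_BAT 1 and 2 were the lowest of the knockouts. The means were 6.03 ± 0.23 in controls and 4.29 ± 0.39 in knockouts, a difference of -1.74 ± 0.40 that left 29.9% of the control signal. Ranked by this difference, Mt2 was at position 18 from the lowest of the 25107 features. Since the members were chosen from these Mt2 values, nothing is read from the rank.

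Mt1 was also lower in every knockout BAT sample, by less. Its main probe was spotted 10 times on each array, with an SD between spots of 0.03 to 0.09. It read 5.61, 5.93, 5.90 and 5.82 in CTL_BAT 1 to 4. In AdipoKO_BAT 1 to 4 it read 5.22, 5.14, 5.22 and 5.42. The gap between the lowest control and the highest knockout was narrow. The means were 5.82 ± 0.14 and 5.25 ± 0.12, a difference of -0.57 ± 0.42 that left 67.5% of the control signal. That SE takes in the wide spread of the WAT samples. From the SDs of the BAT groups alone the SE was 0.09 for Mt1 and 0.23 for Mt2. A second Mt1 probe, designed on a predicted RefSeq transcript, was dimmer and overlapped between genotypes in BAT, at 0.29 ± 0.44 in controls and -0.01 ± 0.41 in knockouts (-0.30 ± 0.30).

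**Figure D1:**
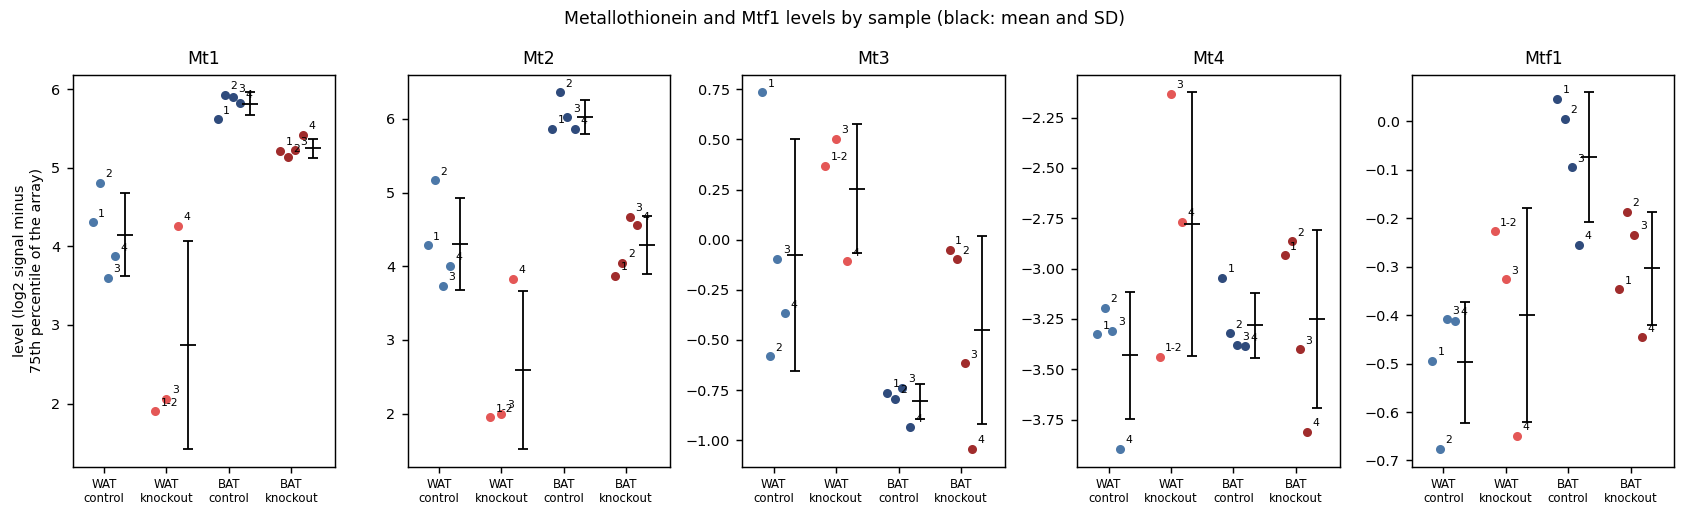
Level (vertical axis, log2 of signal over the array's 75th percentile; each panel has its own scale) of the probe that stands for each gene in WAT control, WAT knockout, BAT control and BAT knockout samples. Points are samples with their replicate numbers, and black bars are the mean and SD of a group. The BAT controls of Mt2 lie at 5.86 to 6.36 and the BAT knockouts at 3.87 to 4.67, while WAT knockout 4 lies among the WAT controls for Mt1 and Mt2.

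Because both genes are read from the same array, the scaling to the 75th percentile cancels in the Mt2 minus Mt1 difference of a sample. It was 0.25, 0.43, 0.13 and 0.04 in CTL_BAT 1 to 4 and -1.34, -1.09, -0.55 and -0.86 in AdipoKO_BAT 1 to 4. All 4 BAT knockouts were thus below all 4 BAT controls (-0.96 ± 0.34 against 0.21 ± 0.17). This difference reuses the Mt2 values behind the choice of members and is a description. In WAT it was -0.03, 0.36, 0.13 and 0.14 in controls and 0.05, -0.07 and -0.43 in AdipoKO_WAT 1-2, 3 and 4. There the first of the 3 knockouts overlapped the controls, and AdipoKO_WAT 4 was the lowest of the WAT samples (0.15 ± 0.16 in controls, -0.15 ± 0.25 in knockouts).

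**Figure D2:**
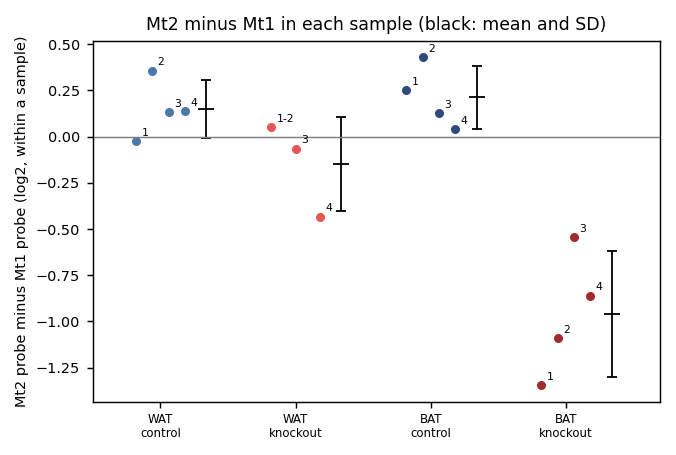
Mt2 probe minus Mt1 probe within each sample (vertical axis, log2) for the 4 groups. Points are samples with their replicate numbers, and black bars are the mean and SD. The 4 BAT knockouts lie between -1.34 and -0.55, and the other samples between -0.43 and 0.43; the value 0 has no meaning of its own, since probes differ in brightness.

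In WAT, Mt1 and Mt2 were low in 2 of the 3 knockout samples and at the control level in the other. Mt2 read 4.28, 5.17, 3.73 and 4.01 in CTL_WAT 1 to 4. In AdipoKO_WAT 1-2, 3 and 4 it read 1.96, 1.998 and 3.83. AdipoKO_WAT 4 lay above CTL_WAT 3, so the groups overlapped. The means were 4.30 ± 0.62 and 2.59 ± 1.07, a difference of -1.70 ± 0.44 that left 30.7% of the control signal. Mt1 read 4.31, 4.81, 3.60 and 3.87 in CTL_WAT 1 to 4. In the knockouts it read 1.91, 2.06 and 4.26. Here AdipoKO_WAT 4 lay above 2 of the 4 controls. The means were 4.15 ± 0.53 and 2.74 ± 1.32, a difference of -1.40 ± 0.45 that left 37.8%. From the SDs of the WAT groups alone the SE was 0.81 for Mt1 and 0.69 for Mt2. The second Mt1 probe read -3.42, -2.79 and -1.34 in the knockouts against -2.27 to -1.34 in the controls (-0.63 ± 0.65).

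The 2 low samples, AdipoKO_WAT 1-2 and 3, were those with low adipocyte and high B cell markers. The summed level of the adipocyte markers ran from 10.5 to 11.04 in CTL_WAT and from 9.37 to 11.5 in AdipoKO_WAT. The summed B cell level ran from 2.36 to 6.16 and from 0.71 to 7.41. T and NK cell markers (7 of 8 measured) had summed levels of 0.27 to 4.996 in controls and -0.12 to 6.21 in knockouts. Mesothelial markers (6 of 6 measured) were at 3.14 to 4.85 in CTL_WAT and at -1.25, 0.44 and 2.78 in AdipoKO_WAT 1-2, 3 and 4. Without AdipoKO_WAT 1-2 and 3, the remaining knockout differed from the controls by 0.12 for Mt1 and by -0.47 for Mt2. Without AdipoKO_WAT 4 the differences were -2.16 and -2.32. The part of cell content in the WAT values was not tested, and fewer adipocytes in a sample cannot be told apart from less metallothionein RNA per adipocyte.

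**Figure D3:**
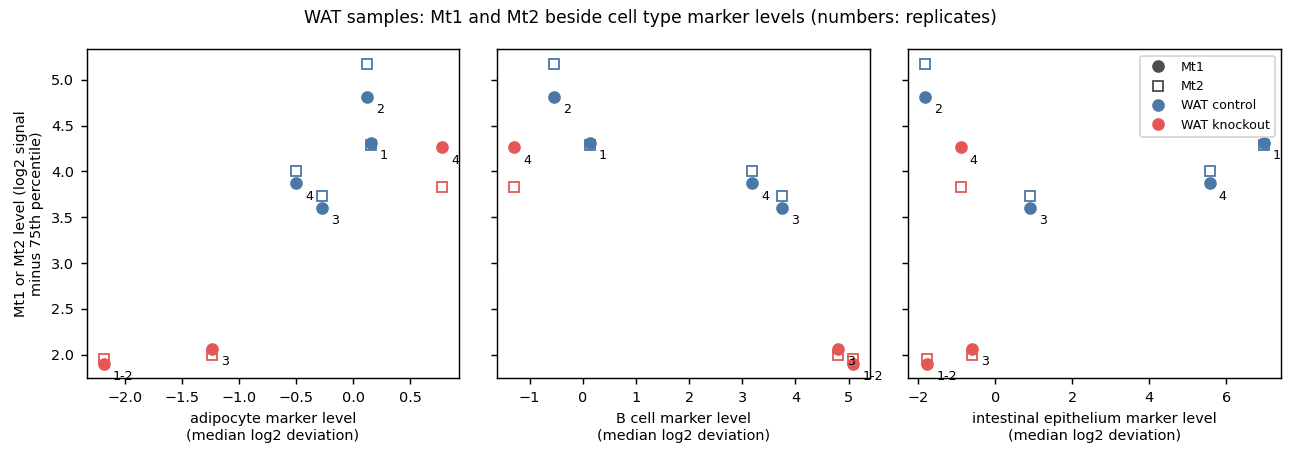
Mt1 (filled circles) and Mt2 (open squares) levels of the 7 WAT samples (vertical axis, log2 of signal over the array's 75th percentile) against the adipocyte, B cell and intestinal marker levels of the same samples (horizontal axes, median log2 deviation). WAT knockouts 1-2 and 3 are lowest for both genes, lowest for adipocyte markers (-2.19 and -1.24) and highest for B cell markers (5.09 and 4.79).

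In BAT the marker lists moved otherwise. Adipocyte markers were level, at 0.14 to 0.44 in CTL_BAT and 0.28 to 0.55 in AdipoKO_BAT, with summed levels of 11.1 to 11.3 and 11.2 to 11.6. Skeletal muscle markers (10 of 10 measured) were at 2.43, 3.02, 2.30 and -1.06 in controls and at 2.56, 5.22, 5.17 and 2.56 in knockouts, with summed levels of 3.42 to 7.83 and 7.22 to 9.65. Endothelial markers (7 of 7 measured) were at -0.04 to 0.33 in controls and at 1.22, 0.85, 0.18 and 0.06 in knockouts, with summed levels of 5.47 to 6.05 and 5.88 to 6.98. AdipoKO_BAT 1 and 2, with the highest endothelial levels, had the lowest Mt2. Their arrays were also the dimmest of the series, with 75th percentile signals of 298 and 320 against 486 to 561 on the other BAT arrays. Without these 2 samples Mt2 differed by -1.41, and without CTL_BAT 4 by -1.80. Their part in the Mt2 value was otherwise not tested.

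The knockout and control arrays of each slide were also paired. In BAT, Mt2 differed by -2.49, -1.98, -1.19 and -1.30 on slides 1 to 4, and Mt1 by -0.71, -0.76, -0.39 and -0.40. Both genes were lower in knockouts on all 4 slides, which any pairing gives when the groups do not overlap. In WAT, Mt2 differed by -2.29, -3.16, 0.09 and -2.11, and Mt1 by -2.25, -2.83, 0.66 and -2.04. Slide 3, which carried AdipoKO_WAT 4, was the exception for both genes, and slides 2 and 4 carried the 2 arrays counted as AdipoKO_WAT 1-2.

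**Figure D4:**
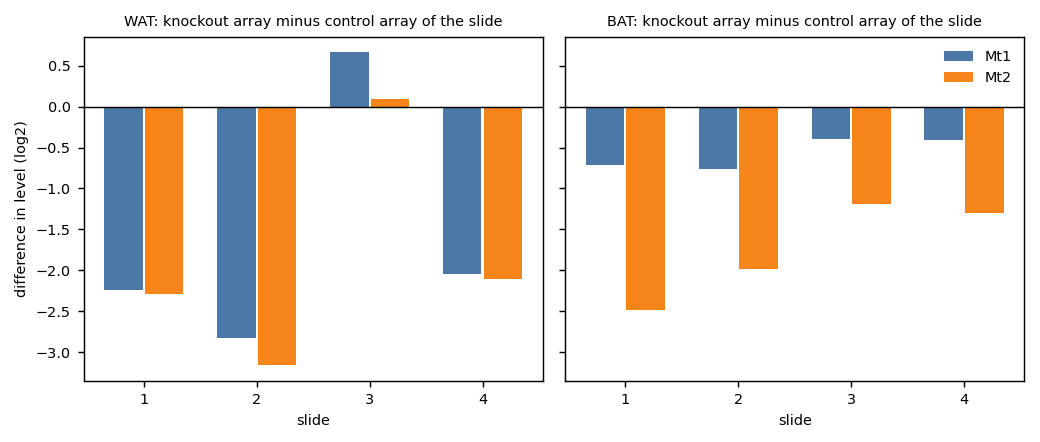
Knockout array minus control array of the same slide (bars, log2) for Mt1 and Mt2 in WAT (left) and BAT (right), by slide. The bars are negative on all 4 slides in BAT and on slides 1, 2 and 4 in WAT; on slide 3 in WAT they are 0.66 for Mt1 and 0.09 for Mt2.

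Mt3 and Mt4 did not share this pattern. Mt3 read -0.76, -0.79, -0.74 and -0.93 in CTL_BAT and -0.05, -0.10, -0.62 and -1.04 in AdipoKO_BAT, where 3 of 4 knockouts were above all controls and the fourth was below them (0.36 ± 0.29). In WAT it read 0.73, -0.58, -0.10 and -0.37 in controls and 0.37, 0.50 and -0.11 in knockouts, which overlapped (0.33 ± 0.31). Mt4 was dim, with signals of 34.7 to 168 on the arrays. Its levels of -3.38 to -3.04 in CTL_BAT and -3.81 to -2.86 in AdipoKO_BAT overlapped (0.03 ± 0.28), as did those of -3.90 to -3.20 in CTL_WAT and -3.44 to -2.13 in AdipoKO_WAT (0.65 ± 0.31). A second Mt4 probe was well above background on 0 of 16 arrays.

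Mtf1 was read by 3 probes, of which 1 was well above background on 0 of 16 arrays. The brighter of the other two read 0.05, 0.01, -0.09 and -0.26 in CTL_BAT and -0.35, -0.19, -0.23 and -0.45 in AdipoKO_BAT. The groups met at CTL_BAT 4 (-0.23 ± 0.15). The dimmer Mtf1 probe read -0.67, -0.58, -0.66 and -0.73 in CTL_BAT and -1.11, -1.34, -1.53 and -1.11 in AdipoKO_BAT. With this probe every knockout was below every control (-0.61 ± 0.11), so the probes differ in the size of the difference. In WAT the genotypes overlapped with both probes, at -0.50 ± 0.13 in controls and -0.40 ± 0.22 in knockouts for the brighter one (0.10 ± 0.16) and at -1.68 ± 0.10 and -1.50 ± 0.28 for the dimmer one (0.18 ± 0.17).

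Counted over the probes that stand for the genes, every knockout sample was below every control for 2 of the 5 members in BAT, Mt1 and Mt2, and for 0 of 5 in WAT. Over all features this held for 8.62% in BAT and 1.23% in WAT. Since the members were chosen on such values, nothing is read from these counts. For the same genotype comparisons the limma test over all features called 0.0159% in BAT and 0.0597% in WAT at an adjusted p of 0.05, that is 4 and 15 features. Leaving out 1 sample moved these counts to between 0 and 84 in BAT and between 7 and 9235 in WAT, the highest of each without AdipoKO_WAT 4. Scaling left the median of all features 0.24 higher in WAT knockouts than in controls and 0.10 higher in BAT knockouts. Relative to these medians, Mt2 differed by -1.95 in WAT and -1.84 in BAT, and Mt1 by -1.65 and -0.67. Across the 4 ways of scaling tried, Mt2 relative to the median lay between -1.95 and -1.81 in WAT and between -2.22 and -1.65 in BAT, and Mt1 between -1.65 and -1.50 in WAT and between -1.06 and -0.52 in BAT. The BAT change minus the WAT change was 0.84 ± 0.62 for Mt1, -0.04 ± 0.59 for Mt2, 0.02 ± 0.42 for Mt3, -0.62 ± 0.42 for Mt4 and -0.33 ± 0.22 for Mtf1, given without a test.

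Between depots, Mt1, Mt2 and Mtf1 were higher in BAT than in WAT in controls. Mt2 was 1.73 ± 0.40 higher in control BAT (3.32-fold, 95% interval 0.86 to 2.60, limma adjusted p = 0.00463), with every BAT sample above every WAT sample. Mt1 was 1.67 ± 0.42 higher (3.18-fold, 0.77 to 2.57, limma adjusted p = 0.00735), again without overlap, and its second probe was 2.17 ± 0.30 higher. Mtf1 was 0.42 ± 0.15 higher with the brighter probe (1.34-fold, 0.10 to 0.75, limma adjusted p = 0.0437) and 1.02 ± 0.06 higher with the dimmer one, without overlap for either. Mt3 differed by -0.73 ± 0.29, with every BAT sample below every WAT sample, and did not pass (limma adjusted p = 0.0668), and Mt4 differed by 0.15 ± 0.28 (limma adjusted p = 0.739, interval -0.46 to 0.76). So 3 of 5 members passed, where 33.4% of all features did.

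The Mt1 and Mt2 calls in controls held with each of the 15 samples left out in turn (highest limma adjusted p = 0.0262 and 0.0174). Without both CTL_WAT 1 and 4, which carried intestinal transcripts, they missed the threshold at differences of 1.61 for Mt1 (limma adjusted p = 0.0570) and 1.58 for Mt2 (limma adjusted p = 0.0526). The Mtf1 call was lost when any of 10 of the 15 samples was left out, namely CTL_WAT 1, 2, 3 or 4, AdipoKO_WAT 3, CTL_BAT 1, 2 or 3, or AdipoKO_BAT 2 or 3 (0.36 to 0.48, highest limma adjusted p = 0.117). Within the slides, control BAT minus control WAT was 1.62, 1.09, 2.01 and 1.95 for Mt1, 2.08, 0.86, 2.13 and 1.85 for Mt2, and 0.50, 0.58, 0.45 and 0.16 for Mtf1 on slides 1 to 4. Since these groups do not overlap for the 3 genes, BAT is higher however the arrays are paired.

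In knockouts Mt1 was 2.50 ± 0.45 higher in BAT than in WAT (5.68-fold, 1.53 to 3.48, limma adjusted p = 0.00115) and Mt2 1.69 ± 0.44 higher (3.23-fold, 0.76 to 2.63, limma adjusted p = 0.0100), without overlap for either. From the SDs of the knockout groups alone the SE was larger, at 0.76 for Mt1 and 0.65 for Mt2. Mtf1 differed by 0.10 ± 0.16 (limma adjusted p = 0.712, interval -0.25 to 0.45), Mt3 by -0.71 ± 0.31 (limma adjusted p = 0.105) and Mt4 by -0.47 ± 0.31 (limma adjusted p = 0.280). Here 2 of 5 members passed, where 30.6% of all features did. The comparison leans on the adipocyte-poor WAT knockouts: without AdipoKO_WAT 1-2 and 3 the differences were 0.99 for Mt1 (limma adjusted p = 0.111) and 0.46 for Mt2 (limma adjusted p = 0.665). Mt2 no longer passed without AdipoKO_WAT 1-2 (1.37, limma adjusted p = 0.0605) or without AdipoKO_WAT 3 (1.40, limma adjusted p = 0.0624). Ordered by mean, Mt2 ran from AdipoKO_WAT through AdipoKO_BAT and CTL_WAT to CTL_BAT; AdipoKO_BAT (4.29 ± 0.39) and CTL_WAT (4.30 ± 0.62) did not differ beyond their spread. Mt1 ran from AdipoKO_WAT through CTL_WAT and AdipoKO_BAT to CTL_BAT, and both BAT groups were above all WAT samples.

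The genes whose level was most like that of a member over the 15 samples were found by Pearson correlation over 16651 named genes. The samples share 4 groups, 2 depots and the scaling, so these are descriptions. For Mt1 they were Gbe1, the glycogen branching enzyme (0.987), Retsat, a retinol saturase, Gm14325, Abhd4 and Plin2, a lipid droplet coat protein (0.985 for the fifth). For Mt2 they were Trappc13 (0.971), Itfg1, Selenof, Spryd7 and Nsdhl, an enzyme of cholesterol synthesis (0.962). Mt1 and Mt2 correlated with each other at 0.914, which put Mt2 at rank 1036 among the genes like Mt1 and Mt1 at rank 151 among those like Mt2. For Mtf1 they were Narf (0.933), the stress-response factor Atf4, Jmjd6, Fastkd5 and Tatdn2, and Mtf1 correlated with Mt1 at 0.31 and with Mt2 at 0.36. After the group means were subtracted, the genes most like Mt1 were Gabarapl1, an autophagy gene (0.991), Grina, Mxd4, Cnpy2 and Ube3c, and those most like Mt2 were Sec63, a translocation factor of the endoplasmic reticulum (0.987), 4933434E20Rik, Selenof, Mpp1 and Fbxo21. Those most like Mtf1 were Capn3 (0.962), Col22a1, Twf2, Cacna1s and Asb2, of which Capn3 and Cacna1s are muscle genes. Within groups, Mt1 and Mt2 correlated at 0.926 with each other, and Mtf1 at -0.80 with Mt1 and -0.69 with Mt2. The 3 AdipoKO_WAT samples, which differ in cell content, gave 78.6% of the within-group sum of squares of Mt1 and 56.3% of that of Mt2. The values of these genes after subtraction thus rest largely on the AdipoKO_WAT samples. For Mtf1 the share was 40.7%, so most of its within-group sum of squares came from the other groups. Over the other 12 samples the correlations were 0.854 for Mt1 with Mt2, -0.67 for Mtf1 with Mt1 and -0.43 for Mtf1 with Mt2, an alternative added after the data were seen.

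Genes that move or answer to zinc were counted against all features, of which 0.0597% passed by genotype in WAT and 0.0159% in BAT, so that 0 calls in a list of this size is no result about the list. An unadjusted p under 0.05 was reached by 17.9% of all features in WAT and 13.1% in BAT (limma). These shares hold for every list below. Of 13 tested zinc importers (the Slc39a or ZIP family) 0 passed in either depot, with 1 at an unadjusted p under 0.05 in WAT and 0 in BAT (limma). Their median difference was -0.17 in WAT and 0.06 in BAT, against 0.24 and 0.10 for all features. Without AdipoKO_WAT 1-2 and 3 the WAT medians turned to 0.27 for importers, 0.022 for exporters and 0.15 for the MTF1 targets below. Of 8 tested zinc exporters (the Slc30a or ZnT family) 0 passed, with 1 at an unadjusted p under 0.05 in each depot (limma) and medians of -0.16 and -0.14. Of 5 genes known as MTF1 targets (Slc30a1, Slc39a10, Gclc, Selenoh and Ndrg1) 0 passed in either depot, with 1 at an unadjusted p under 0.05 in each (limma) and a median of -0.02 in both. Slc30a1 and Slc39a10 are also counted among the exporters and importers. The list of targets takes no account of whether MTF1 raises or lowers a gene, so its median gives no direction of MTF1 action. Slc30a1, the cell surface zinc exporter that MTF1 induces, was at 0.43 ± 0.04 in CTL_BAT and 0.41 ± 0.17 in AdipoKO_BAT (-0.02 ± 0.17). It was at 0.25 ± 0.18 in CTL_WAT and -0.01 ± 0.36 in AdipoKO_WAT (-0.26 ± 0.19).

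Between depots 2 of 13 importers were higher in BAT and 3 lower in controls, and 2 were higher and 2 lower in knockouts, near the shares of all features that passed (33.4% and 30.6%). Without CTL_WAT 1 and 4 the control counts were 3 and 2, and without AdipoKO_WAT 1-2 and 3 the knockout counts were 0 and 3. Slc39a4, known as the zinc importer of the gut, was lower in BAT in controls (-7.02 ± 0.64, limma adjusted p = 3.7e-06) and in knockouts (-5.06 ± 0.69, limma adjusted p = 0.000149). It read 4.41, 1.28, 1.07 and 3.11 in CTL_WAT 1 to 4, so the highest values were in CTL_WAT 1 and 4, the samples with intestinal transcripts. Without them the difference in controls was -5.73, and without AdipoKO_WAT 1-2 and 3 that in knockouts was -3.83. With normexp background correction the differences were -5.17 and -3.15, and all 4 values passed (highest limma adjusted p = 0.0257). In CTL_BAT it was at -5.15 to -4.25, and well above background on 3 of 4 arrays. Slc39a6 was lower in BAT in both genotypes (-1.13 ± 0.19 and -1.28 ± 0.21, limma adjusted p = 0.000461 and 0.000485). Slc39a9 was higher in BAT in both genotypes (1.07 ± 0.20 and 0.82 ± 0.22, limma adjusted p = 0.000975 and 0.0114). The Slc39a9 call in knockouts was lost without AdipoKO_WAT 1-2 and 3 and with normexp background correction. Slc39a3 differed by 0.54 in controls (limma adjusted p = 0.0796) and was higher in knockout BAT (0.94 ± 0.24, limma adjusted p = 0.0107), a call lost without AdipoKO_WAT 1-2 and 3 (0.21, limma adjusted p = 0.687).

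Among the 8 exporters 1 was higher and 2 lower in control BAT, and 1 was higher and 1 lower in knockout BAT, where 33.4% and 30.6% of all features passed. Slc30a9 was higher in BAT by 1.98 ± 0.25 in controls and 1.43 ± 0.27 in knockouts (limma adjusted p = 4.6e-05 and 0.00146). Slc30a7, an exporter into the Golgi, was lower (-0.91 ± 0.16 and -0.92 ± 0.17, limma adjusted p = 0.000521 and 0.00133). The knockout calls of both were lost without AdipoKO_WAT 1-2 and 3 (1.02 and -0.73, limma adjusted p = 0.114 and 0.0636). Slc30a2 was at least 7.57-fold lower in control BAT (limma adjusted p = 0.00199), where it was well above background on 0 of 4 arrays. That bound sets the mean of the WAT controls against, for each BAT array, the higher of the probe's own signal and the lowest signal well above background. In WAT controls it read -0.07, -2.66, -3.72 and -1.34, again highest in samples 1 and 4. Without these 2 samples the bound was 3.20-fold (difference -1.84, limma adjusted p = 0.0228), and with normexp the difference was -1.54 (limma adjusted p = 0.0341). Of the MTF1 targets, Ndrg1 was lower in control BAT (-0.81 ± 0.28, limma adjusted p = 0.0410). That call was lost without CTL_WAT 1 and 4 (-0.64, limma adjusted p = 0.226), with slide as a block (limma adjusted p = 0.0678) and with another background correction (limma adjusted p = 0.127).

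**Figure D5:**
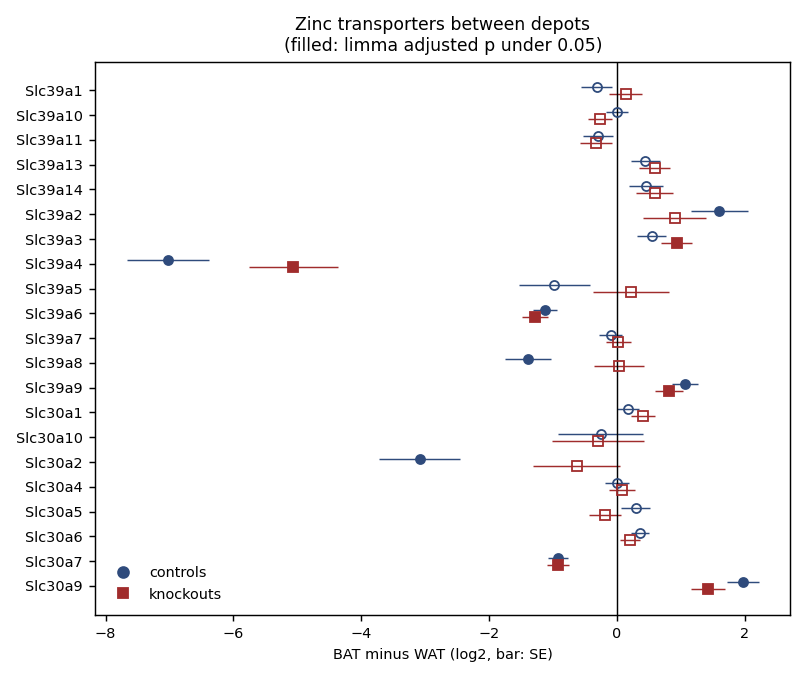
BAT minus WAT difference (horizontal axis, log2, bars are SE) of each tested zinc importer (Slc39a) and exporter (Slc30a) in controls (circles) and knockouts (squares). Filled symbols passed limma at an adjusted p under 0.05. Slc39a4 stands apart at -7.02 in controls and -5.06 in knockouts, and Slc30a9 lies farthest to the right among those that passed in both genotypes, at 1.98 and 1.43.

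Copper is the other metal that metallothioneins hold. Of 14 tested copper genes 4 were higher and 2 lower in control BAT, with a median of 0.47 against 0.11 for all features, and 7 were higher and 2 lower in knockout BAT, with a median of 0.71 against -0.09. Of all features 33.4% and 30.6% passed. Cox17, the copper chaperone of cytochrome c oxidase, was higher by 2.57 ± 0.21 in controls and 2.69 ± 0.22 in knockouts (limma adjusted p = 1.4e-06 and 3.5e-06). Ccs, which loads copper into SOD1, was higher by 1.49 ± 0.18 and 2.02 ± 0.20 (limma adjusted p = 3.6e-05 and 9.6e-06). Atp7a, a copper export pump, was lower in BAT in both genotypes (-0.92 ± 0.14 and -0.66 ± 0.16, limma adjusted p = 0.000276 and 0.00612), and so was ceruloplasmin, Cp (-0.80 and -1.44, limma adjusted p = 0.0108 and 0.000483). The Cp call in controls was lost without CTL_WAT 1 and 4 and with normexp background correction. The Atp7a call in knockouts was lost without AdipoKO_WAT 1-2 and 3, which left 1 knockout WAT sample. Without AdipoKO_WAT 1-2 and 3 the knockout counts were 2 and 1. By genotype 0 of 14 passed in either depot, with 1 in WAT and 4 in BAT at an unadjusted p under 0.05 (limma) and medians of -0.24 and -0.04. The WAT median was 0.37 without AdipoKO_WAT 1-2 and 3.

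Other genes known to be induced by glucocorticoid, set beside Mt1 and Mt2, gave 0 of 12 called by genotype in either depot, with 4 at an unadjusted p under 0.05 in each (limma). Their median was -0.48 in WAT and 0.51 in BAT, against 0.24 and 0.10 for all features, and the WAT median was 0.57 without AdipoKO_WAT 1-2 and 3. In BAT 9 of the 12 were higher in knockouts and 3 lower, where 60.2% of all features were higher. Between depots 3 were higher and 2 lower in control BAT, and 7 higher and 1 lower in knockout BAT, where 33.4% and 30.6% of all features passed. Pdk4, a kinase that restrains pyruvate dehydrogenase, was higher in BAT by 5.42 ± 0.38 in controls and 6.10 ± 0.41 in knockouts (limma adjusted p = 4.8e-07 and 6.1e-07). Cebpd was lower in BAT in both genotypes (-1.94 ± 0.21 and -0.88 ± 0.22, limma adjusted p = 1.2e-05 and 0.00957), and Lpin1 was higher in both genotypes (1.66 and 2.26, limma adjusted p = 0.0117 and 0.00366). Sgk1 was also higher in both (1.02 and 1.52, limma adjusted p = 0.0132 and 0.00232). Without CTL_WAT 1 and 4 the control counts were 1 and 2, and neither Lpin1 (1.504, limma adjusted p = 0.0913) nor Sgk1 passed. Sgk1 in controls also did not pass with quantile scaling, and Cebpd in knockouts did not pass with normexp background correction. Without AdipoKO_WAT 1-2 and 3 the knockout counts were 1 and 1, and neither Sgk1 (1.28, limma adjusted p = 0.105) nor Lpin1 (0.49, limma adjusted p = 0.288) passed.

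Metallothioneins are also acute phase genes. Of 6 other acute phase genes tested, 0 passed by genotype, with 3 in WAT and 1 in BAT at an unadjusted p under 0.05 (limma) and medians of -1.02 and -0.28. The WAT median was -0.48 without AdipoKO_WAT 1-2 and 3. Between depots 1 of 6 passed in controls and 2 of 6 in knockouts, where 33.4% and 30.6% of all features did. Saa3, a serum amyloid gene, was lower in control BAT than in control WAT (-4.29 ± 0.46, limma adjusted p = 1.3e-05), and differed by -1.31 between the knockout groups (limma adjusted p = 0.0616). In knockouts Hp (haptoglobin) was higher in BAT and Socs3 lower (2.09 and -2.87, limma adjusted p = 0.00647 and 0.00860), against 0.46 and -1.79 in controls (limma adjusted p = 0.492 and 0.0523). Neither passed without AdipoKO_WAT 1-2 and 3 (0.34 and -0.82, limma adjusted p = 0.615 and 0.633).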

How the data were processed

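Total RNA of 4 groups of 4 samples was labelled with Cy3 and hybridised to one-colour arrays, per the labels. Agilent Feature Extraction 12.0.0.7 read the scans, per the file headers. The deposited intensity of a spot is its processed signal, from which background and spatial trend were removed array by array; per the file headers, arrays were not scaled to each other. The deposited flag columns (background, saturation, outlier) are other values, 0 or 1 for a spot, per the file headers. The deposited value table, an intensity on a linear scale, equalled the mean processed signal for 100% of 41174 probes within a relative tolerance of 0.0001, so its scale is linear, with no centring. Its column medians were 48.8, 51.5, 59.3 and 63.7 in BAT knockouts, 63.7, 67.0, 68.5 and 76.6 in BAT controls, 73.0, 94.4, 94.5 and 145 in WAT knockouts and 103, 112, 134 and 138 in WAT controls, sorted within a group.

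Spots marked as outliers were dropped and spots of a probe averaged. The level is log2 of the signal over the array's 75th percentile. Probes well above background on at least 3 of 4 arrays of a group were kept. Accessions matched RefSeq (GRCm38.p6) for 28223 probes. The brightest probe stood for a gene, which left 16677 named genes and 8430 unnamed probes. One limma 3.58.1 model (lmFit and eBayes, R 4.3.3) was fitted over 15 samples with two-sided tests, p-values adjusted by Benjamini-Hochberg for all 25107 features and a threshold of 0.05, and was tested on simulated data. Slide as a block, replicate numbers as a block, other scalings and left-out samples were alternatives. List counts without mixed samples were added after the data were seen.

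The members and gene lists were chosen with earlier results of these data known. Named are all member probes, Nr3c1, the 5 genes most like Mt1, Mt2 and Mtf1, and, in each list and comparison, at most 3 genes that passed, those with the lowest adjusted p; Slc30a1 was chosen after its values were seen. Summary counts for the genes near the metallothionein cluster are not reported here.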

Additional observations from a re-analysis of the deposited data

How the results depend on the processing

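Of 29 alternatives, 15 left out 1 sample each. Mt1 and Mt2 stayed lower in knockout BAT in all 29, and Mt2 in knockout WAT too; Mt1 in WAT turned to 0.12 without AdipoKO_WAT 1-2 and 3, with Mt2 at -0.47 and Mtf1 at -0.15. In BAT, Mt1 was -0.72 with normexp, -0.71 scaled to the median and -0.43 over the mean of its probes; Mtf1 was -0.37 scaled to the median and -0.42 over its probes; and Mt2 was -1.41 without AdipoKO_BAT 1 and 2.

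Mtf1 in controls between depots no longer passed limma with normexp (0.31), scaled to the median (0.57), without a filter, with slide as a block or with a replicate block (0.42 in these 3; limma adjusted p = 0.0673 with the replicate block), or without CTL_WAT 1 and 4 (0.47); leaving out 1 sample gave 0.36 to 0.48. Without CTL_WAT 1 and 4, Mt1 was 1.61 and Mt2 1.58 in controls. Over all 29 alternatives the control differences ran from 1.05 to 1.92 for Mt1 and from 1.11 to 2.02 for Mt2. In knockouts Mt2 was 1.69 in a fit of the 2 groups alone (limma adjusted p = 0.0627) and 1.37 to 2.31 with 1 sample left out; without AdipoKO_WAT 1-2 and 3, Mt1 was 0.99 and Mt2 0.46. Mt3 between depots, which had not passed, did so in 1 of the 29 alternatives in controls (limma adjusted p = 0.0353) and in 4 in knockouts (lowest limma adjusted p = 0.0381). Signs turned in 2 differences between depots that had not passed: Mt4 in controls (-0.11 with normexp, -0.030 without CTL_WAT 1 and 4, -0.0054 to 0.23 with 1 sample left out) and Mtf1 in knockouts (-0.027 to 0.18).

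The 15 features called in WAT were 1 with normexp, 24 with quantile scaling, 61 scaled to the median, 278 with 16 arrays as samples, 0 in a fit of 2 groups, 5 with slide as a block, 4 without CTL_WAT 1 and 4, 9 without AdipoKO_WAT 1-2 and 3, and 7 to 9235 with 1 sample left out, the highest without AdipoKO_WAT 4. The 4 in BAT were 22 with 16 arrays, 12 in a fit of 2 groups, 29 without AdipoKO_WAT 1-2 and 3, and 0 to 84 with 1 sample left out. They were 0 with normexp, without a filter, with slide or replicate as a block, and without CTL_WAT 1 and 4, CTL_BAT 4 or AdipoKO_BAT 1 and 2. The depot counts were 5272 in controls without CTL_WAT 1 and 4. In knockouts they were 3823 with normexp, 2990 in a fit of 2 groups, 2835 without AdipoKO_WAT 1-2 and 3, and 4497 to 11456 with 1 sample left out. The causes of these moves were not tested.

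Whether replicate numbers pair the samples could not be settled, since pairs were few and differently numbered pairs were not set beside them. Correlations of same-numbered deviations ran from -0.48 to 0.27. Between the depots they were 0.05 to 0.18 in controls and -0.26 to 0.11 in knockouts. For WAT and BAT arrays of the same slide they were -0.11 to 0.05 in controls and 0.12 to 0.42 in knockouts. The replicate block ended no call of a member apart from that of Mtf1.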

Other observations

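A few genes near the metallothionein cluster on chromosome 8 are named for their low adjusted p between depots, where 33.4% of all features passed in controls and 30.6% in knockouts, so nothing is read from their number. Cpne2, a copine, was lower in BAT in controls and in knockouts (-3.05 and -1.89, limma adjusted p = 7.7e-06 and 0.000942). Gnao1, a G protein subunit gene, was higher by 2.22 and 2.32 (limma adjusted p = 0.000406 and 0.000760). With normexp background correction Gnao1 did not pass (1.01 and 1.09, limma adjusted p = 0.0961 and 0.123). Bbs2, a gene of the primary cilium, was higher in control BAT by 1.32 (limma adjusted p = 0.00227) and differed by 0.42 between the knockout groups (limma adjusted p = 0.330). Nup93, of the nuclear pore, was lower in BAT in both genotypes (-0.86 and -1.29, limma adjusted p = 0.00311 and 0.000432).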
